A study of Cornus officinalis with 7 samples.

Results

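The tissues of the fruit, pericarp and seed, were compared with young leaf, mature leaf and young stem of *Cornus officinalis*, using 5 of the 7 RNA-seq libraries of the study. A unigene, that is 1 sequence of the *de novo* assembly, counted as higher in fruit when the lower of its pericarp and seed values was at least 4 times the highest of its 3 vegetative values. It counted as higher in the vegetative tissues when the lowest of the 3 vegetative values was at least 4 times the higher fruit value. All values were FPKM, the fragments of a unigene scaled by its length and by the mapped fragments of the library, with 1 added. A unigene was considered when its FPKM reached 1 in any of the 5 libraries, which left 172679 of the 304371 unigenes. Of these, 376 were higher in both fruit tissues (0.218%) and 341 were higher in all vegetative tissues (0.197%), while 171962 met neither rule. The lowest FPKM at which a unigene can meet either rule is 3. Of the unigenes considered, 64471 reached it in any of the 5 libraries. Both fruit libraries or all 3 vegetative libraries must reach it, so 64471 is an upper limit on those that could meet a rule.

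The labels describe all tissues as the same plant material, aged 12 years, with 1 strand-specific library for each tissue. No treatment or genotype separates the libraries, so each of the 5 groups is named by its tissue alone. Pericarp and seed are different tissues and so are leaf and stem, so the libraries on a side are not replicates of 1 another, and no p-value or error can be given. The inflorescence and mature stem libraries were left out of the rule, and the inflorescence values are used below only as a measurement that the rule did not see.

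*C. officinalis* is a small tree whose red fruits are used in medicine, and the pericarp is the wall of the fruit around the seed. The plant makes iridoids, a class of monoterpenoids that includes loganin and secologanin, as well as triterpenoids and gallotannins. In the iridoid pathway, geranyl diphosphate is turned into geraniol, oxidised, closed into the iridoid ring by iridoid synthase, given a glucose, hydroxylated and methylated to loganin, and opened to secologanin by secologanin synthase (SLS). Cytochrome P450s, a family of oxidising enzymes, act at several of these steps and on the rings of triterpenoids. Gallotannins start from the shikimate pathway, which also feeds the aromatic amino acids.

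The summed FPKM was 975250 in pericarp and 888653 in seed, against 948009 in young leaf, 915196 in mature leaf and 876794 in young stem. FPKM holds no read count, and what 1 fragment is worth was read from the low values. It was 1.46 times that of young stem in pericarp and 1.07 times in seed, against 1.14 times in young leaf and 1.16 times in mature leaf, so pericarp was the shallowest of the 5 libraries and young stem the deepest. The 10 unigenes with the highest FPKM held 10.8% of the sum in pericarp and 6.84% in seed, against 8.51% in young leaf, 8.67% in mature leaf and 4.63% in young stem. The tissue labels were not checked against marker genes, since the annotation used here names only enzymes of the 3 pathways and cytochrome P450s. In whole tissues, fewer cells of a type and less RNA per cell cannot be told apart.

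The sets were close in size and in the height of their ratios. The ratio between the nearest libraries of the sides, on FPKM + 1, had a median of 5.57 among the unigenes higher in fruit and 5.79 among those higher in the vegetative tissues. It reached 8 in 105 unigenes higher in fruit (0.0608%) and in 102 higher in the vegetative tissues (0.0591%), and 20 in 26 and 27 of them. At a ratio of 100 there were 2 unigenes higher in fruit and 3 higher in the vegetative tissues. Among the 20832 unigenes that reached an FPKM of 10 in any of the 5 libraries, 230 were higher in fruit (1.1%) and 279 were higher in the vegetative tissues (1.34%). At lower ratios the sets were no longer alike in size, with 4242 unigenes (2.46%) at least 2 times higher in fruit and 2204 (1.28%) at least 2 times higher in the vegetative tissues. A fruit call needs 2 high libraries and a vegetative call needs 3, so the counts of the directions are not like for like. Whether this made the gap was not tested. The unigenes nearest the threshold had ratios of 4.01 and 4.02 inside it and 3.99 outside it for fruit, and 4 inside and 3.99 outside for the vegetative tissues.

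**Figure D1:**
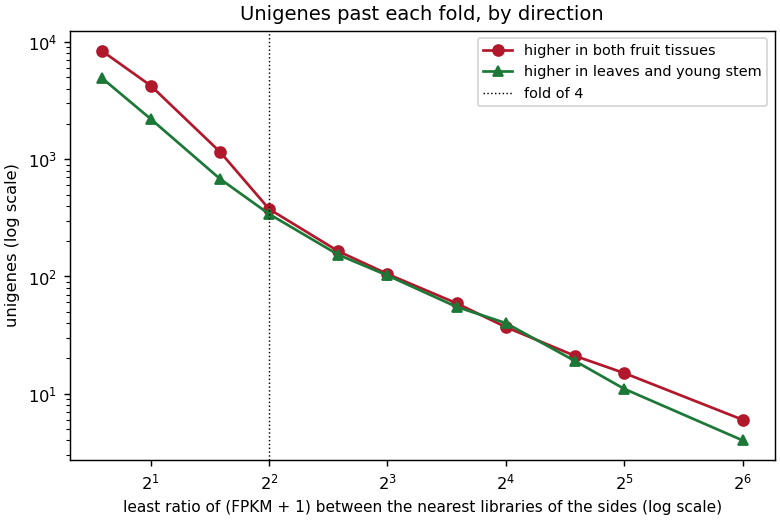
Number of unigenes (log axis) whose ratio of FPKM + 1 between the nearest libraries of the sides reached each fold (log axis), for unigenes higher in both fruit tissues (red circles) and higher in leaves and young stem (green triangles), with a dotted line at a fold of 4. The fruit line lies above the vegetative line at a fold of 2 (4242 and 2204 unigenes), and the lines lie close together at a fold of 4 (376 and 341) and at a fold of 8 (105 and 102).

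Most unigenes that stood out in 1 fruit tissue did not stand out in the other. Pericarp alone was at least 4 times the highest vegetative value in 3962 unigenes and seed alone in 4574, so the 376 unigenes that met the rule in both were 9.49% of those in pericarp and 8.22% of those in seed. On the vegetative side, young leaf alone was at least 4 times the higher fruit value in 3465 unigenes, mature leaf in 3677 and young stem in 3752. The 341 unigenes that met the rule in all 3 were 9.84%, 9.27% and 9.09% of these. Leaving out 1 library can only add unigenes to a set. Without young stem the sets grew to 816 and 1546 unigenes, and without mature leaf the vegetative set grew to 838. The vegetative set grew to 1210 without pericarp and to 645 without seed.

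**Figure D2:**
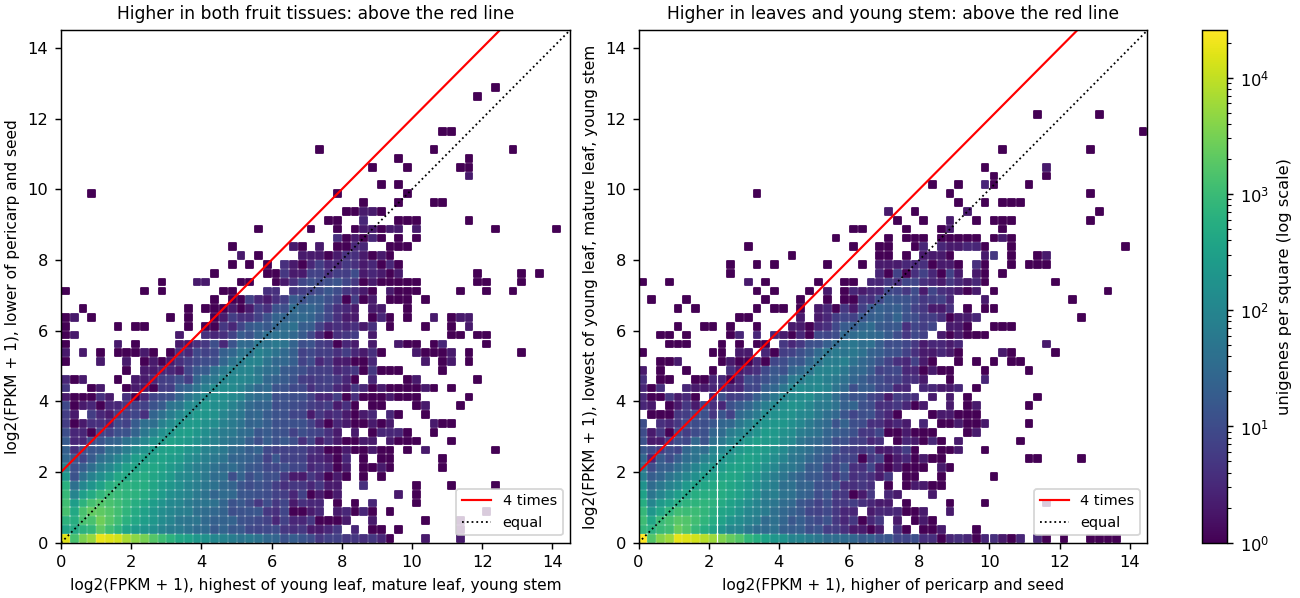
Density of the 172679 unigenes on log2(FPKM + 1) axes, with the lower fruit value against the highest vegetative value (left) and the lowest vegetative value against the higher fruit value (right). Colour gives the number of unigenes in each square (log scale), the dotted line marks equal values and the red line a ratio of 4. The 376 unigenes higher in fruit and the 341 higher in the vegetative tissues lie on or above the red lines.

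The unigenes higher in fruit had a median FPKM of 11.1 in pericarp and 10.6 in seed, against a median of 0 in each of young leaf, mature leaf and young stem. They were listed at 0 in all 3 vegetative libraries in 183 of 376 cases (48.7%). In the other 193, the highest vegetative value was in young stem for 113, in mature leaf for 43 and in young leaf for 37. The set held 4.01% of the summed FPKM of pericarp and 2.70% of that of seed, against 0.0493% of young leaf, 0.0615% of mature leaf and 0.128% of young stem. Pericarp and seed had the higher value in nearly equal numbers, 189 and 187 unigenes, and on FPKM + 1 they differed by a median of 1.45 times. The fruit tissues were within 2 times of each other in 269 unigenes and at least 4 times apart in 37, of which pericarp was the higher in 20 and seed in 17.

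The unigenes higher in the vegetative tissues had a median FPKM of 0.24 in pericarp and 0.09 in seed, against 26.7 in young leaf, 16.6 in mature leaf and 14.4 in young stem. Both fruit tissues were listed at 0 in 123 of 341 cases (36.1%). Where they were not, pericarp had the higher fruit value in 152 unigenes and seed in 66. The set held 0.121% of the summed FPKM of pericarp and 0.0597% of that of seed, against 4.86% of young leaf, 3.57% of mature leaf and 2.69% of young stem. The highest of the 3 vegetative values was in young leaf for 190 unigenes, in mature leaf for 70 and in young stem for 81. Young stem was the lowest of the 3 in 179 unigenes, mature leaf in 123 and young leaf in 39. On FPKM + 1, the highest and lowest vegetative values differed by a median of 2.30 times, and by 4 times or more in 79 unigenes.

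The inflorescence, which the rule did not use, had medians between those of the sides in both sets. Among unigenes higher in fruit its median FPKM was 2.27, and 227 of them (60.4%) reached an FPKM of 1 there. Among unigenes higher in the vegetative tissues its median was 4.34, and 256 (75.1%) reached 1. Over all 172679 unigenes the inflorescence median was 0.46 and 40.3% reached 1, although both sets were also chosen for being well above 1 in at least 2 libraries. The inflorescence value lay above every vegetative value and below both fruit values in 174 of the 376 unigenes higher in fruit, and it was listed at 0 in 115. In the other set it lay between the sides in 193 of 341 unigenes, above all 3 vegetative values in 22 and at 0 in 52. How often it lay between the sides was not measured over other unigenes. Both sets were chosen for a wide gap between the sides, so these counts do not show that the inflorescence is an intermediate tissue. Mature stem was at 0 in 343 unigenes (91.2%) of the fruit set and 293 (85.9%) of the vegetative set, against 95.7% of all unigenes considered.

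**Figure D3:**
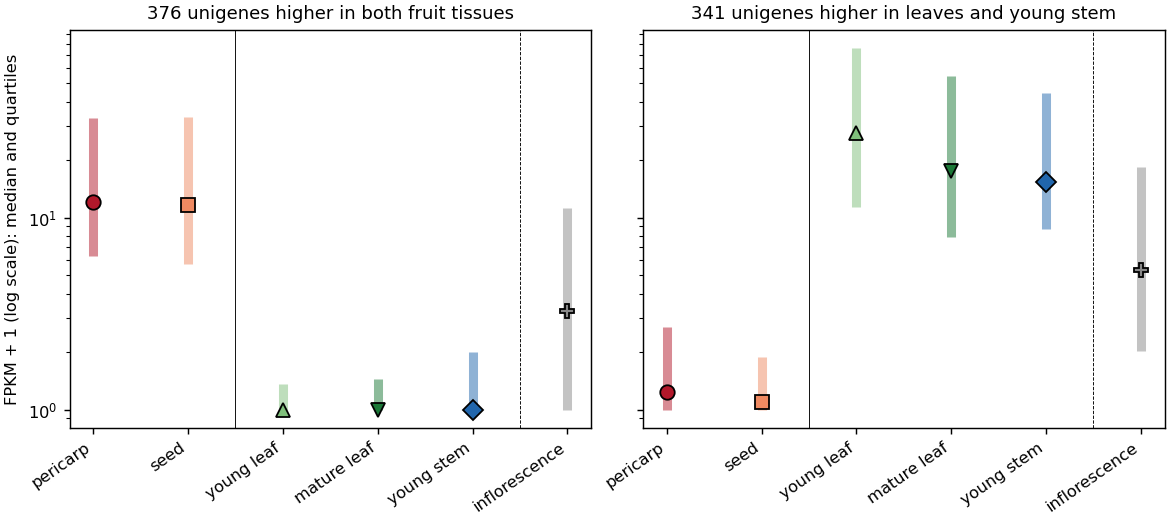
Median (symbol) and quartiles (bar) of FPKM + 1 on a log axis in pericarp, seed, young leaf, mature leaf, young stem and, right of the dashed line, inflorescence. The left panel holds the 376 unigenes higher in both fruit tissues, with FPKM medians of 11.1 in pericarp and 10.6 in seed, and the right panel the 341 higher in leaves and young stem, with medians of 26.7, 16.6 and 14.4. The inflorescence medians, 2.27 and 4.34 FPKM, lie between the sides in both panels.

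Nearly all of these unigenes carry no name in the annotation used here. The study's lists hold 549 unigenes named by sequence similarity as enzymes of the iridoid, triterpenoid or gallotannin pathway or as cytochrome P450s. Its list of 262 P450s kept only those above a minimum length and a minimum expression in any of the 7 tissues. Of the 549, 401 had an FPKM of at least 1 in any of the 5 libraries. Of these 401, 4 were higher in fruit (0.998%, against 0.218% of all unigenes considered) and 3 were higher in the vegetative tissues (0.748%, against 0.197%). All 4 that were higher in fruit were cytochrome P450s, from the list cut on length and expression. The shares over all unigenes were matched for neither. At an FPKM of at least 5 in any of the 5 libraries they were 0.835% and 0.877%. The 3 that were higher in the vegetative tissues were SLS, 7DLGT and a unigene of the study's cytochrome P450 list. The SLS unigene is not on that list, although the paper links a P450 of another plant to secologanin biosynthesis.

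The SLS unigene had the largest ratio of any listed enzyme. Secologanin synthase opens the ring of loganin to give secologanin. Unigene075938 had an FPKM of 8.62 in pericarp and 3.45 in seed, against 1929 in young leaf, 1470 in mature leaf and 965 in young stem. Even its lowest vegetative value was 100.4 times the pericarp value on FPKM + 1, and its inflorescence value of 139.6 lay between the sides. The mean of log2(FPKM + 1) was lower in fruit by 7.74.

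The other listed SLS unigenes did not share this pattern. Of the 5 that were considered, 4 had their highest value in pericarp. The highest of these, Unigene137214, which was chosen after its values were seen, had an FPKM of 91.7 in pericarp and 20.2 in seed, against 27.3 in young leaf, 22.4 in mature leaf and 54.3 in young stem. Summed over all 9 listed SLS unigenes, the FPKM was 127 in pericarp and 40.4 in seed, against 1962 in young leaf, 1498 in mature leaf and 1038 in young stem, a ratio of 8.10 on FPKM + 1. SLS was the only enzyme of the 3 pathways whose summed FPKM met either rule, and Unigene075938 held 93.8% of that sum over the 5 libraries.

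7DLGT, 7-deoxyloganetic acid glucosyltransferase, adds glucose to the iridoid ring. Unigene274540, assigned to it, had an FPKM of 6.15 in pericarp and 0.34 in seed, against 52.2 in young leaf, 52.0 in mature leaf and 29.9 in young stem, with a ratio of 4.33. It lay close to the threshold, with a ratio of 3.97 after scaling the libraries by median of ratios, and the 9 listed 7DLGT unigenes considered were mixed, with 2 whose fruit values were both above every vegetative value (against 13.6% of all unigenes) and 3 with the reverse order (against 7.55%). Summed over all listed unigenes, 7DLGT was at 86.8 in pericarp and 38.7 in seed, against 109 in young leaf, 118 in mature leaf and 103 in young stem.

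Over all 63 iridoid unigenes considered, both fruit values lay above every vegetative value in 9 (14.3%, against 13.6% of all unigenes) and the reverse order held in 12 (19.0%, against 7.55%). For this and the other lists, such shares over all unigenes were not matched for level of expression. Level moved the calls by the rule, which rose from 0.218% and 0.197% to 1.1% and 1.34% at an FPKM of at least 10. The median difference of the iridoid unigenes in mean log2(FPKM + 1) was -0.16, and without the seed library it was 0.13. The remaining enzymes of the pathway did not meet the rule in either direction. 8HGO, 8-hydroxygeraniol oxidoreductase, oxidises the intermediate before ring closure, and its Unigene122572 had 494 FPKM in pericarp and 107 in seed, against 528 in young leaf, 483 in mature leaf and 591 in young stem. IS, iridoid synthase, had 49.7 in pericarp and 36.2 in seed, against 66.4 in young leaf, 86.8 in mature leaf and 48.8 in young stem for Unigene241827. GPPS, geranyl diphosphate synthase, which makes the monoterpenoid precursor, had 34.1 in pericarp and 19.7 in seed, against 58.0 in young leaf, 66.7 in mature leaf and 16.6 in young stem for Unigene113028.

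The fruit values of these 3 unigenes overlapped the vegetative ones, and seed was the lowest of the 5 tissues for 8HGO and IS. Summed over all listed unigenes, both fruit values of GPPS and 8HGO lay below every vegetative value. GPPS was at 163 in pericarp and 124 in seed, against 272 in young leaf, 259 in mature leaf and 258 in young stem. 8HGO was at 568 in pericarp and 336 in seed, against 744 in young leaf, 713 in mature leaf and 750 in young stem. IS sums overlapped, at 126 in pericarp and 95.8 in seed, against 94.9 in young leaf, 114 in mature leaf and 68.7 in young stem. LAMT, loganic acid *O*-methyltransferase, makes loganin, and its Unigene220174 had 232 FPKM in pericarp and 13.5 in seed, against 269 in young leaf, 91.7 in mature leaf and 234 in young stem. 7DLH, 7-deoxyloganic acid hydroxylase, had 263.8 in pericarp and 60.0 in seed, against 49.2 in young leaf, 62.0 in mature leaf and 8.69 in young stem for Unigene120969. G10H, geraniol 10-hydroxylase, had 92.4 in pericarp and 14.9 in seed, against 24.2 in young leaf, 50.8 in mature leaf and 6.05 in young stem for Unigene134292. Pericarp was the highest of the 5 tissues for the 7DLH and G10H unigenes, and seed was the lowest for the LAMT unigene. Summed over all listed G10H unigenes, however, mature leaf was the highest, with 169 in pericarp and 35.6 in seed, against 131 in young leaf, 222 in mature leaf and 55.0 in young stem.

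The highest unigenes of the remaining labels were seen in few of the tissues or were low throughout. GES, geraniol synthase, had 27.2 FPKM in young stem for Unigene036779, which was listed at 0 in both fruit tissues and both leaves. IO, iridoid oxidase, stayed between 0.32 and 0.89 in all 5 tissues for Unigene100054, below the level considered. The single GGPS unigene on the list, Unigene078051, did not exceed 0.09 in any of the 5 and had 25.5 in mature stem.

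Different unigenes of 1 enzyme could have their highest values in different tissues. For 7DLH, 3 further unigenes are given, chosen after their values were seen. None of the 5 listed 7DLH unigenes had every vegetative value above both fruit values, against 7.55% of all unigenes. So few unigenes cannot be told from that share. Unigene112559 had 38.0 FPKM in pericarp and 24.4 in seed, against 2.69 in young leaf, 0.60 in mature leaf and 17.0 in young stem. Unigene276335 was listed at 0 in pericarp and had 0.22 in seed, against 104 in young leaf, 76.0 in mature leaf and 0 in young stem, so it was high in the leaves only. Unigene283926 was less divided, with 13.9 in pericarp and 1.51 in seed, against 18.5 in young leaf, 28.1 in mature leaf and 7.70 in young stem. Summed over its 5 unigenes, 7DLH was highest in pericarp, with 322 in pericarp and 86.9 in seed, against 182 in young leaf, 176 in mature leaf and 34.1 in young stem. Among the 7 IS unigenes considered, 3 had both fruit values above every vegetative value, against 13.6% of all unigenes, and 0 had the reverse order, against 7.55%, which are few unigenes to read a share from. The nearest to the rule, Unigene078530, also chosen after its values were seen, had 42.8 in pericarp and 19.2 in seed, against 3.80 in young leaf, 6.20 in mature leaf and 1.93 in young stem, a ratio of 2.80.

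**Figure D4:**
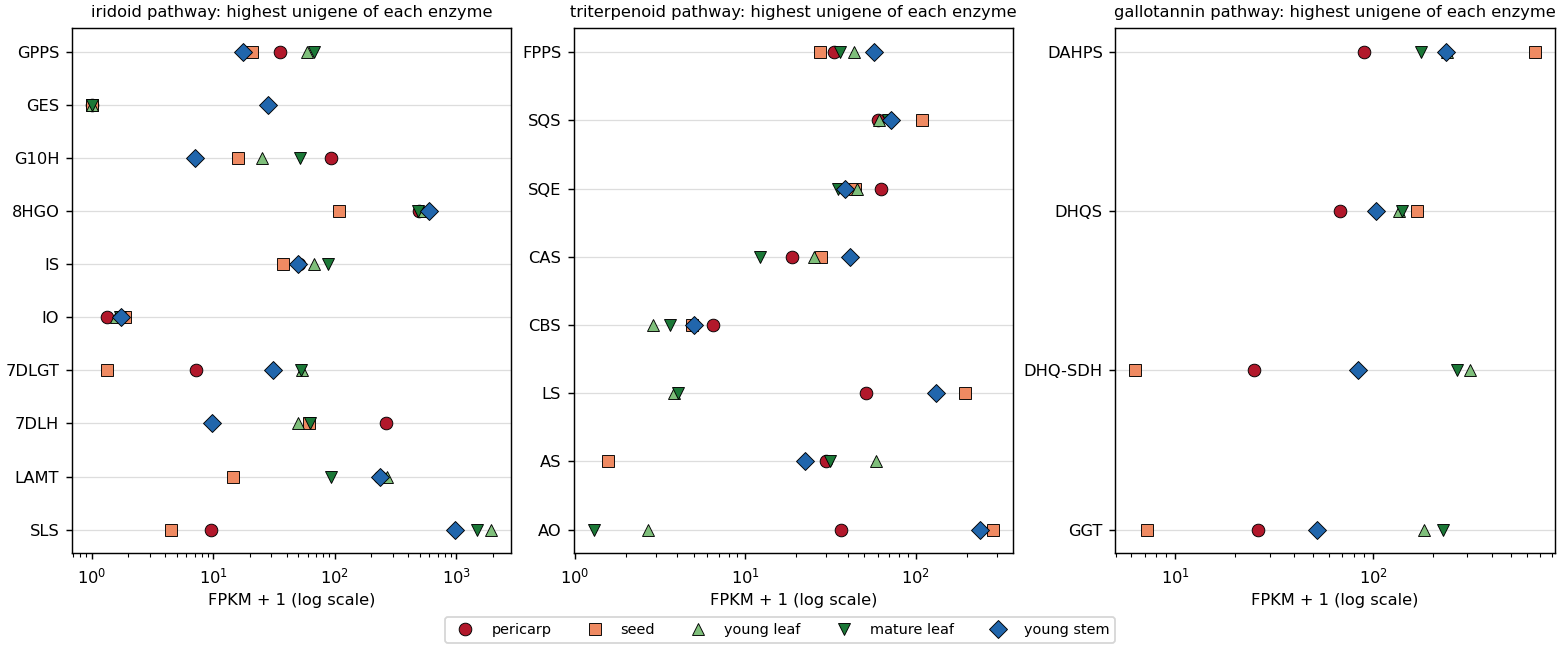
FPKM + 1 (log axis) in pericarp, seed, young leaf, mature leaf and young stem for the unigene with the highest summed FPKM of each enzyme of the iridoid, triterpenoid and gallotannin pathways. Triterpenoid labels whose enzyme is not spelled out in the sources (TS, DH, DS) and the general label OSC are left out, as is GGPS. SLS shows the widest gap between the sides (3.45 to 8.62 FPKM in fruit and 965 to 1929 in leaves and young stem), and LS and AO show young stem with the fruit tissues and away from the leaves.

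Of the 144 triterpenoid unigenes considered, 0 met the rule in either direction, against 0.218% and 0.197% of all unigenes, so a count of 0 is close to the share over all unigenes. Both fruit values lay above every vegetative value in 17 (11.8%, against 13.6% of all unigenes) and the reverse held in 28 (19.4%, against 7.55%), with a median difference of -0.11 on the log2 scale. These shares were not matched for level either. FPPS, SQS and SQE, farnesyl diphosphate synthase, squalene synthase and squalene epoxidase, supply the common precursor of triterpenoids and sterols, and their highest unigenes varied little between the sides. Unigene193292 (SQS) had 58.8 FPKM in pericarp and 109 in seed, against 60.4 in young leaf, 68.2 in mature leaf and 70.6 in young stem. Unigene250497 (SQE) had 61.7 in pericarp and 43.1 in seed, against 44.5 in young leaf, 34.1 in mature leaf and 37.7 in young stem. Both enzymes had the highest of the 5 values in a fruit tissue, without a gap between the sides. Unigene080179 (FPPS) had 32.1 in pericarp and 26.3 in seed, against 42.5 in young leaf, 35.1 in mature leaf and 56.0 in young stem, so both of its fruit values were below every vegetative value. The study also lists this unigene as GPPS of the iridoid pathway, so its place in the pathways is not settled. CAS, cycloartenol synthase, which leads to sterols, had 17.8 in pericarp and 26.8 in seed, against 24.3 in young leaf, 11.2 in mature leaf and 40.0 in young stem for Unigene078800. CBS, cucurbitadienol synthase, stayed between 1.89 and 5.46 in all 5 for Unigene275362, with pericarp the highest.

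Young stem, rather than the leaves, kept the highest LS and AO unigenes out of the fruit set. LS, lupeol synthase, closes the ring of lupeol, and Unigene126127 had 50.4 FPKM in pericarp and 194.6 in seed, against 2.84 in young leaf, 3.02 in mature leaf and 130.3 in young stem. AO, an enzyme given by the study as oxidising amyrins, had 35.6 in pericarp and 283.5 in seed, against 1.69 in young leaf, 0.29 in mature leaf and 238.7 in young stem for Unigene173248. Against the leaves alone, their lower fruit value was 12.8 and 13.6 times the higher leaf value on FPKM + 1. Both were also low in inflorescence, at 3.19 and 0.87. The LS unigene held 62.6% of the LS sum over the 5 libraries and the AO unigene 30.4% of the AO sum. Summed over all listed AO unigenes, the leaves were not low. The AO sums were 236 in pericarp and 607 in seed, against 216 in young leaf, 257 in mature leaf and 528 in young stem. AS, amyrin synthase, had 29.0 in pericarp and 0.56 in seed, against 57.6 in young leaf, 30.4 in mature leaf and 21.5 in young stem for Unigene081022, so seed alone was low. This unigene held only 14.4% of the AS sum over the 5 libraries. Summed over all listed AS unigenes, pericarp was the highest at 301 and seed the lowest at 63.3. The vegetative sums were 266 in young leaf, 197 in mature leaf and 136 in young stem.

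The lists also name some triterpenoid unigenes only as TS, DH, DS or OSC, and their highest unigenes were low. Unigene244997 (TS) was listed at 0 in both fruit tissues, against 3.09 FPKM in young leaf, 1.38 in mature leaf and 0.79 in young stem. Unigene054480 (DH) was listed at 0 in pericarp and had 0.17 in seed, against 3.10 in young leaf, 4.90 in mature leaf and 0.65 in young stem. Unigene229364 (DS) had 1.35 in pericarp and 0.90 in seed, against 0.65 in young leaf and 0 in mature leaf and young stem. Neither TS nor DH had a fruit value above any vegetative value in these unigenes, and DS had the opposite order. Unigene242439 (OSC, oxidosqualene cyclase) had 4.76 in pericarp and 0.59 in seed, against 0.78 in young leaf, 5.57 in mature leaf and 0.19 in young stem.

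Of the 25 gallotannin unigenes considered, 0 met the rule, against 0.218% and 0.197% of all unigenes, so here too 0 is close to the share over all unigenes. The mean of log2(FPKM + 1) was lower in fruit for 16 of the 25, against 44.6% of all unigenes, with a median difference of -0.40, against 0.13 over all unigenes considered. All 3 vegetative values were above both fruit values in 9 (36.0%), against 7.55% of all unigenes, and the reverse order held for 1 (4.0%), against 13.6%. As for the iridoid list, these shares were not matched for level of expression. DHQ-SDH, the enzyme that makes shikimate and is a source of gallic acid, came closest to the rule. Its Unigene173474 had 23.9 FPKM in pericarp and 5.29 in seed, against 310 in young leaf, 264.5 in mature leaf and 83.2 in young stem, a ratio of 3.39. GGT, the glucosyltransferase that joins gallic acid and glucose, had 25.2 in pericarp and 6.16 in seed, against 180.4 in young leaf, 223.9 in mature leaf and 51.1 in young stem for Unigene281485. Both listed GGT unigenes had every vegetative value above both fruit values.

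The highest unigenes of the first enzymes of the shikimate pathway had their highest value in seed. DAHPS, which starts the pathway, had 88.7 FPKM in pericarp and 655 in seed, against 235 in young leaf, 174 in mature leaf and 234 in young stem for Unigene070183. DHQS, 3-dehydroquinate synthase, had 66.8 in pericarp and 165 in seed, against 134 in young leaf, 139 in mature leaf and 103 in young stem for Unigene252093. Seed had the highest value and pericarp the lowest for both unigenes, so the sides overlapped. Another DAHPS unigene, Unigene085665, chosen after its values were seen, had the opposite order, with 12.2 in pericarp and 41.2 in seed, against 252 in young leaf, 230.1 in mature leaf and 78.4 in young stem. Summed over all listed unigenes, DAHPS was at 184 in pericarp and 779 in seed, against 545 in young leaf, 475 in mature leaf and 356 in young stem.

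Of the 178 cytochrome P450s considered, 4 were higher in both fruit tissues (2.25%) and 1 was higher in all vegetative tissues (0.562%). The SLS unigene Unigene075938 is not on the P450 list and is not counted here. The study had kept P450 unigenes only above a minimum length and a minimum expression in any of its 7 tissues. The list was thus chosen partly on length and level and not like the rest of the table. The comparisons that follow were not matched for length. Counting unigenes that reached an FPKM of 5 in any of the 5 libraries, 4 of 166 P450s were higher in fruit (2.41%) and 1 was higher in the vegetative tissues (0.602%), against 0.835% and 0.877% of all 38203 such unigenes. Both fruit values lay above every vegetative value in 32 of the 178 P450s (18.0%), against 13.6% of all unigenes, and the reverse held in 31 (17.4%), against 7.55%. The list's median difference in mean log2(FPKM + 1) was -0.35, and without the seed library it was 0.11.

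By the rule, the P450s higher in fruit were expressed in both fruit tissues, and pericarp was the higher in 3 of the 4. Unigene110160 had 52.6 FPKM in pericarp and 12.9 in seed and was listed at 0 in young leaf, mature leaf and young stem. Unigene076313 had 75.5 in pericarp and 32.5 in seed, against 1.97 in young leaf, 2.63 in mature leaf and 1.00 in young stem, a ratio of 9.23. Unigene080748 had 127 in pericarp and 59.4 in seed, against 2.65 in young leaf, 9.80 in mature leaf and 3.27 in young stem, a ratio of 5.59. In all 3, seed was the lower of the fruit tissues, and its place above every vegetative value was required by the rule. Unigene032703 had the opposite order within the fruit, with 20.6 in pericarp and 36.3 in seed, against 1.14 in young leaf, 2.34 in mature leaf and 3.09 in young stem, a ratio of 5.27. The P450 of the list that was higher in the vegetative tissues, Unigene117814, was at 0 in both fruit tissues. It had 10.1 in young leaf, 4.72 in mature leaf and 3.52 in young stem.

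As among all unigenes, more P450s and pathway enzymes stood out in 1 fruit tissue than in both. Of the 401 listed unigenes, 20 were at least 4 times the highest vegetative value in pericarp only and 22 in seed only, beside the 4 in both. That is 24 in pericarp (5.99%, against 2.29% of all unigenes considered) and 26 in seed (6.48%, against 2.65%), most of them from the P450 list that was chosen partly on level. Leaving out young stem added 8 listed unigenes to the fruit set, for 12 in all, and 20 to the vegetative set, for 23. The LS and AO unigenes above were among the 8, and the DHQ-SDH and GGT unigenes among the 20. Without seed 24 listed unigenes were higher in fruit and 5 in the vegetative tissues, without pericarp 26 and 32, and without mature leaf 5 and 5.

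The largest ratios of all belonged to unigenes without a name. Unigene290988 had 11302 FPKM in pericarp and 919.7 in seed, against 0.70 in young leaf, 0.64 in mature leaf and 0.14 in young stem, a ratio of 541.6. It alone held 28.9% of the summed pericarp FPKM of the fruit set. Unigene261707 had 218.9 in pericarp and 145.2 in seed and was listed at 0 in young leaf, mature leaf and young stem. On the other side, Unigene223856 was listed at 0 in both fruit tissues, against 278 in young leaf, 159.5 in mature leaf and 382.9 in young stem. Unigene279429 had 0.76 in pericarp and 0.69 in seed, against 429 in young leaf, 303 in mature leaf and 177 in young stem, a ratio of 101.2. The 4 of them were named by the size of their ratio alone, and the files do not pair these identifiers with gene names.

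**Figure D5:**
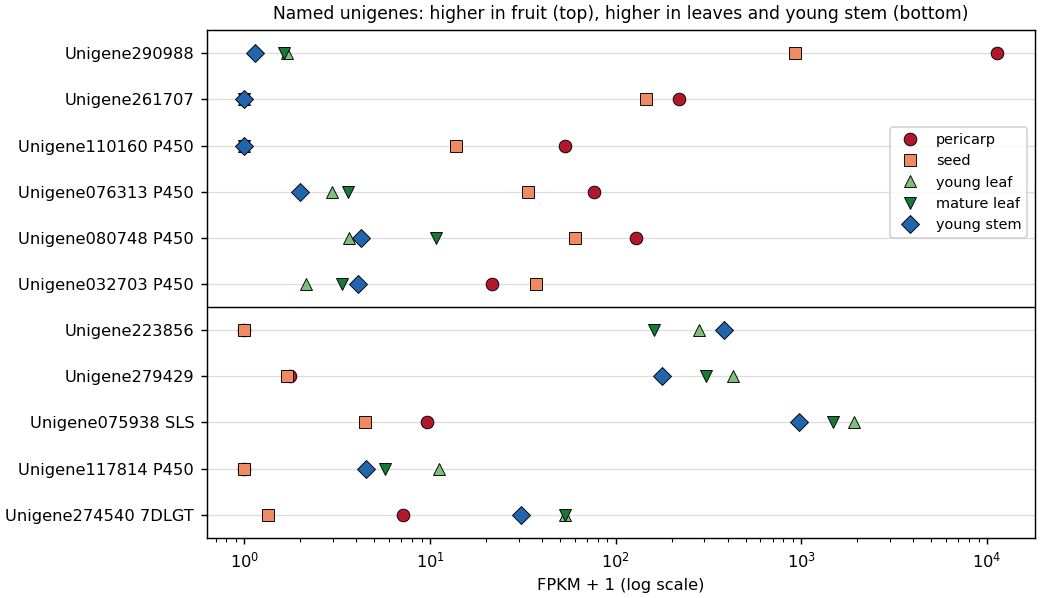
FPKM + 1 (log axis) of the named unigenes that met the rule, in pericarp (red circle), seed (orange square), young leaf (light green triangle), mature leaf (dark green triangle) and young stem (blue diamond). Above the line are the 6 that were higher in both fruit tissues and below it the 5 that were higher in leaves and young stem, each ordered by its ratio, and the symbols of the sides do not overlap for any of them since this is what the rule required.

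Some of the unigenes may be copies or fragments of 1 gene, among which the mapped reads were divided. Of the pairs of pathway unigenes with consecutive identifiers on 1 list, 39 of 48 had the same enzyme name. In the sets themselves, 16 of the 376 unigenes higher in fruit and 23 of the 341 higher in the vegetative tissues had a member with a neighbouring identifier, so counts of unigenes are not counts of genes.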

How the data were processed

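RNA-seq of 7 tissues was used, with 1 library per tissue, and 5 libraries entered the comparison. According to the study's methods and the submitters' processing notes, the authors trimmed reads with Trimmomatic, assembled unigenes *de novo*, removed redundancy with CD-HIT-EST, mapped reads of each tissue with Bowtie and estimated expression with RSEM. The deposited values are the authors' FPKM, relative to the length of each unigene and to the number of reads its library mapped, and they hold no counts. RSEM divides reads among similar unigenes, so values of near-identical copies are uncertain. The tissue tables and the series table held equal values, with 0 differing. No columns of the authors' own comparisons were present in the tables used.

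A pseudocount of 1, a minimum FPKM of 1 in any of the 5 libraries and a fold of 4 between the nearest libraries of the sides defined the sets, with no test. Differences given for a list are medians over its unigenes of the mean log2(FPKM + 1) in fruit minus that in the vegetative tissues. The relative worth of 1 fragment was the most frequent ratio between young stem and each library over unigenes above 0 in only these 2 of the 7 libraries, in bins of 0.04 on the log2 scale. Enzyme names and identifiers came from the study's supplementary lists, which it made by sequence similarity and, for P450s, also by length and expression. Of the iridoid unigenes, 12 are also on the P450 list and 3 on the triterpenoid list.

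The members and lists were chosen with earlier results of these data known. Named unigenes were every pathway unigene that met the rule (up to 12 per list and direction), the highest unigene of each enzyme, up to 8 P450s per direction and the 2 unannotated unigenes per direction with the largest ratios. Others are said to be chosen after their values were seen. Alternatives changed the pseudocount, fold, filter, scaling, summary of each side and libraries, and a filter at an FPKM of 5 was added after seeing the data. Calculations used Python 3.11.15, numpy 2.4.6, pandas 2.3.3 and matplotlib 3.10.9 and were tested on simulated data.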

Additional observations from a re-analysis of the deposited data

Results flagged for a closer look

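The inflorescence was outside the comparison, and 5 of the 6 named unigenes that were higher in fruit had values there above every vegetative library. The other, the P450 Unigene032703, had 1.30 there, below 3.09 in young stem and 2.34 in mature leaf. Of the whole fruit set, 233 of 376 unigenes had an inflorescence value above every vegetative library, so this is common in the set. Its share over all unigenes considered was not measured. The 5 include Unigene110160, whose inflorescence value was below the minimum FPKM of 1. Unigene261707 had 231.09 FPKM in inflorescence, above both fruit tissues, although it was listed at 0 in young leaf, mature leaf and young stem. Unigene290988 had 101.7 there, against at most 0.70 in the vegetative libraries. The P450s Unigene076313 and Unigene080748 had 20.71 and 19.52, against at most 2.63 and 9.80 in the vegetative libraries, and Unigene110160 had 0.57 where all 3 vegetative libraries were at 0.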

How the results depend on the processing

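No paired analysis was possible because each tissue has 1 library and no replicates. Counts are given here as unigenes higher in fruit, then unigenes higher in the vegetative tissues. With 0.1 added in place of 1 they were 5646 and 3951 (listed enzymes 10 and 18), and with 5 added 81 and 87 (2 and 1). A fold of 2 gave 4242 and 2204 (13 and 20), and a fold of 8 gave 105 and 102 (2 and 1). An FPKM of at least 10 in any library left 230 unigenes higher in fruit. Comparing the means of the sides gave 2059 and 2237 (30 and 38). Leaving out each library in turn gave 445 to 4574 unigenes higher in fruit and 426 to 1546 higher in the vegetative tissues, and 4 to 26 and 4 to 32 listed enzymes. The highest counts came without pericarp, except the 1546 without young stem, since a library left out is 1 condition fewer to meet. Scaling by equal library sums (404 and 397) or by median of ratios (369 and 357), no filter, and a filter at an FPKM of 5 stayed within 1.5 times of the counts given in the report. Of the 11 named unigenes that met the rule, Unigene274540 missed it after scaling by median of ratios, with 5 added and at a fold of 8, Unigene032703 and Unigene117814 with 5 added and at a fold of 8, Unigene110160 with 5 added and Unigene080748 at a fold of 8. The small median differences of the lists changed sign under some filters and libraries. At an FPKM of at least 10 they were 0.0207 for P450s and 0.0804 for triterpenoid unigenes, and at an FPKM of at least 5 the triterpenoid median was 0.049. Leaving out each library in turn gave -0.7603 (without pericarp) to 0.1082 (without seed) for P450s, -0.6175 (without pericarp) to 0.1347 (without seed) for iridoid unigenes, and -0.0552 (without seed) to 0.2921 (without young stem) over all unigenes, and the cause was not tested. Depth limits the low values, since a value of 0 in pericarp, the shallowest library, rests on the fewest fragments.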

Other observations

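The listed unigenes that stood out in a single fruit tissue are given here as values, and all were chosen after their values were seen. Among the 22 that reached 4 times the highest vegetative value in seed only, 3 cytochrome P450s are examples. Unigene078193 had 20.9 FPKM in pericarp and 607.6 in seed, against 27.0 in young leaf, 10.3 in mature leaf and 56.8 in young stem. Unigene288422 had 5.72 in pericarp and 337.5 in seed, against 11.4 in young leaf, 5.91 in mature leaf and 22.4 in young stem. Unigene174127 had 3.46 in pericarp and 317.9 in seed, against 2.87 in young leaf, 0.29 in mature leaf and 6.87 in young stem. In each of these 3, pericarp lay below young stem. The 8HGO unigene Unigene107582 had 1.03 in pericarp and 53.1 in seed, against at most 0.79 in the vegetative tissues.

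Among the 20 that stood out in pericarp only, the P450 Unigene117819 had 103 FPKM in pericarp and 17.9 in seed, was listed at 0 in both leaves and had 6 in young stem. The P450 Unigene119404 had 201 in pericarp and 48.7 in seed, against 25.9 in young leaf, 31.0 in mature leaf and 35.5 in young stem. The OSC unigene Unigene015709 had 10.2 in pericarp and 0.73 in seed and was listed at 0 in the 3 vegetative libraries. For all 3 of these, seed was also above the vegetative values, by less than 4 times. Not all of the 20 shared this. The G10H unigene Unigene254553 was listed at 0 in seed, and the 7DLH unigene Unigene120969 was lower in seed than in mature leaf.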
